A study of Mus musculus with 30 samples.

Results

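The comparison described here sets forelimb buds exposed to the WNT inhibitor C59 for 1 h against forelimb buds of the matched solvent control. Its members are the 3 C59 and the 3 DMSO libraries labelled 1 h, which are 6 of the 30 libraries of the series, and the 13076 protein-coding autosomal genes with enough reads among the 50833 genes of the count table. The series follows mouse forelimb buds by polyadenylated RNA-seq at 1, 6, 12, 18 and 24 h after a single injection into the pregnant female at E10.5, with 3 libraries per treatment and time. The embryos were wild-type Swiss Albino, an outbred stock, and no allele was altered in either group. C59 animals received the compound in its carrier, and DMSO animals received diluted DMSO. According to the study's methods these carriers were not the same mixture, so the compound and its carrier cannot be told apart. Each library came from a pair of forelimb buds, according to the study's methods, and no source ties a number in one group to the same number in the other.

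C59 blocks porcupine, the enzyme of the endoplasmic reticulum that attaches a fatty acid to WNT ligands so that they can be secreted. WNT ligands made by the limb ectoderm and mesenchyme bind Frizzled receptors and LRP co-receptors, β-catenin then accumulates, and TCF/LEF factors switch on targets that include feedback inhibitors of the pathway itself. In the limb bud this signalling sustains outgrowth, together with fibroblast growth factors from the apical ridge and sonic hedgehog from the posterior margin. The comparison at 1 h asks how much of the transcriptome had moved before the disruption seen at later times.

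The 6 libraries held between 20579078 and 30506759 counts, of which 95.9 to 97.8% fell in protein-coding genes. The limb mesenchyme gene *Prrx1* stood at 110.2 to 123 FPKM (fragments per kilobase of transcript, scaled to library size) and the forelimb factor *Tbx5* at 35.8 to 39.4 FPKM, whereas the hindlimb factors *Tbx4* and *Pitx1* stood at 2.15 to 2.61 and 0.0810 to 0.351 FPKM. *Porcn*, which encodes the enzyme that C59 blocks, lies on the X chromosome, was not tested and stood at 2.54 to 3.12 FPKM. The libraries differed in sex-linked transcripts. Y-linked genes summed to 37.0, 38.2 and 21.2 FPKM in the C59 libraries and to 7.66, 9.03 and 0.0469 FPKM in the DMSO libraries, while the X-inactivation RNA *Xist* stood at 0.0793, 0.0891 and 23.7 FPKM after C59 and at 46.8, 40.5 and 56.1 FPKM after DMSO. Both kinds of signal stood side by side in 3 libraries, DMSO replicates 1 and 2 and C59 replicate 3, which a single embryo of one sex would not give and which conflicts with 1 pair of buds per library. Sex makeup and treatment therefore cannot be told apart at 1 h, and only autosomal genes are compared. DMSO replicate 1 also stood apart in 1 ribosomal RNA-like transcript, *CT010467.1*, which took 0.545% of its counts against 1.95 to 2.33% in the other 5 libraries.

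After 1 h, 360 genes differed between C59 and DMSO at an adjusted p below 0.05, which is 2.75% of those tested: 149 were higher after C59 (1.14%) and 211 lower (1.61%) (edgeR quasi-likelihood test, Benjamini-Hochberg adjustment). Most differences were small. Of the 360 genes, 262 differed by less than 1.5-fold, 61 by 1.5- to 2-fold and 37 by more than 2-fold (0.283% of those tested), and the median absolute log2 fold change was 0.36. Of the 37 genes past 2-fold, 20 were higher (0.153%) and 17 lower (0.13%), and 21 had less than 5 CPM (counts scaled to a common library size) in the group where they were higher. The 3 libraries of one group did not overlap those of the other for 354 of the 360 genes, against 22% of all tested genes. Here p-values measure the spread between these 6 libraries, and the count of 360 became 677 when DMSO replicate 3 was left out, 184, 189 or 226 when a C59 replicate was left out and 210 without DMSO replicate 2.

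**Figure D1:**
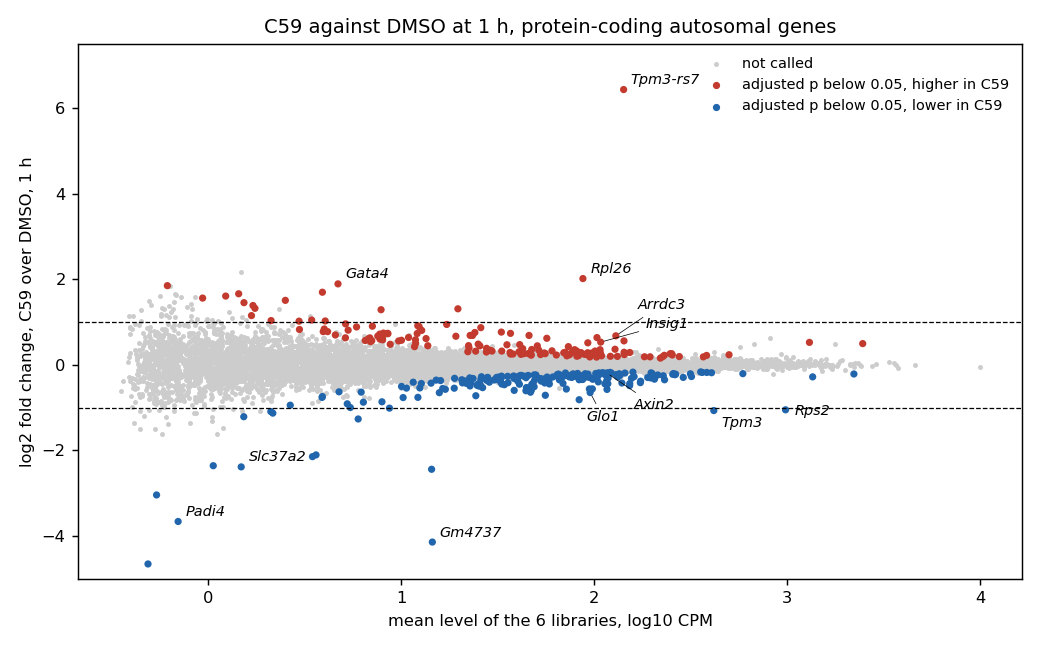
Each point is a protein-coding autosomal gene, with its mean level in the 6 libraries on the x axis (log10 CPM) and its log2 fold change, C59 over DMSO, on the y axis. Called genes are coloured, dashed lines mark 2-fold, and *Nr1h5* and *Gm3468*, which were at 0 in one group, are left out. Most of the 360 called genes lie between the dashed lines, with *Tpm3-rs7* far above them.

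Of 30 tested WNT feedback and target genes, 4 fell and none rose, while 26 did not pass the test (1.61% of all tested genes fell). The list median was -0.06 (log2) against 0.0016 over all tested genes, and 22 of the 30 had a negative fold change, against 49.4% of all genes. The 4 genes were *Axin2*, *Apcdd1*, *Fzd10* and *Twist1*. None of them changed by as much as 1.5-fold.

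*Axin2* (chr11:108920349-108950783, mm10), a direct target that encodes a scaffold of the β-catenin destruction complex, was at 126, 124 and 122 CPM after DMSO and at 111, 110.1 and 105 CPM after C59. Every C59 library lay below every DMSO library, and the gap between the groups was wider than the range within either. The log2 fold change was -0.19 ± 0.04 (SE, n = 3 and 3, edgeR adjusted p = 0.0282). *Apcdd1*, a membrane-bound inhibitor of WNT signalling, went from 101, 99.0 and 103 CPM to 79.9, 85.7 and 83.0 CPM (log2 fold change -0.28 ± 0.05, edgeR adjusted p = 0.00355), the clearest of the 4 decreases. The calls of *Axin2*, *Fzd10* and *Twist1* were lost when any library other than DMSO replicate 3 was left out (edgeR adjusted p up to 0.128, 0.161 and 0.165), which left *Apcdd1* alone, and *Apcdd1* itself was not called when all 30 libraries shared 1 estimate of the spread (edgeR adjusted p = 0.102).

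*Fzd10*, a WNT receptor gene, was at 119.7, 110.3 and 108 CPM after DMSO and 97.7, 98.3 and 99.7 CPM after C59 (-0.19 ± 0.05, edgeR adjusted p = 0.0466). *Twist1*, a transcription factor of the limb mesenchyme, was at 392, 389.9 and 373 CPM and then 331, 353 and 337 CPM (-0.18 ± 0.04, edgeR adjusted p = 0.0315). Both sets of libraries were separate in each of these genes. Other well known targets did not pass the test. *Notum*, which encodes an enzyme that inactivates secreted WNTs, had a log2 fold change of -0.05 ± 0.13, *Nkd1*, an intracellular inhibitor, -0.04 ± 0.05, and *Lef1*, a partner of β-catenin on DNA, -0.08 ± 0.07. The WNT-induced repressor gene *Sp5* was at 6.52, 6.03 and 6.40 CPM after DMSO and 6.91, 7.09 and 8.05 CPM after C59 (0.22 ± 0.13, edgeR adjusted p = 0.422), so its C59 libraries were the higher ones without passing the test. *Dkk1*, a secreted inhibitor that binds LRP co-receptors, was at -0.36 ± 0.11 (edgeR adjusted p = 0.101), and the lowest and highest of the list, *Rnf43* at -0.42 and *Lgr6* at 0.25, had overlapping libraries.

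By 6 h the list had fallen almost throughout. At 6 h, 26 of the 30 genes were lower after C59 and none higher (11.4% of all genes tested at 6 h were lower and 8.2% higher), and the list median was -1.07. The change of the C59 effect between 1 h and 6 h, tested as an interaction, was toward lower values in 24 of the 30 genes, against 7.65% of all genes tested for it. For *Axin2* the log2 fold change went from -0.19 to -1.97, a change of -1.77 ± 0.08 (edgeR adjusted p = 9.13e-12). For *Sp5* it went from 0.22 to -4.50, a change of -4.71 ± 0.29 (edgeR adjusted p = 3.71e-09).

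**Figure D2:**
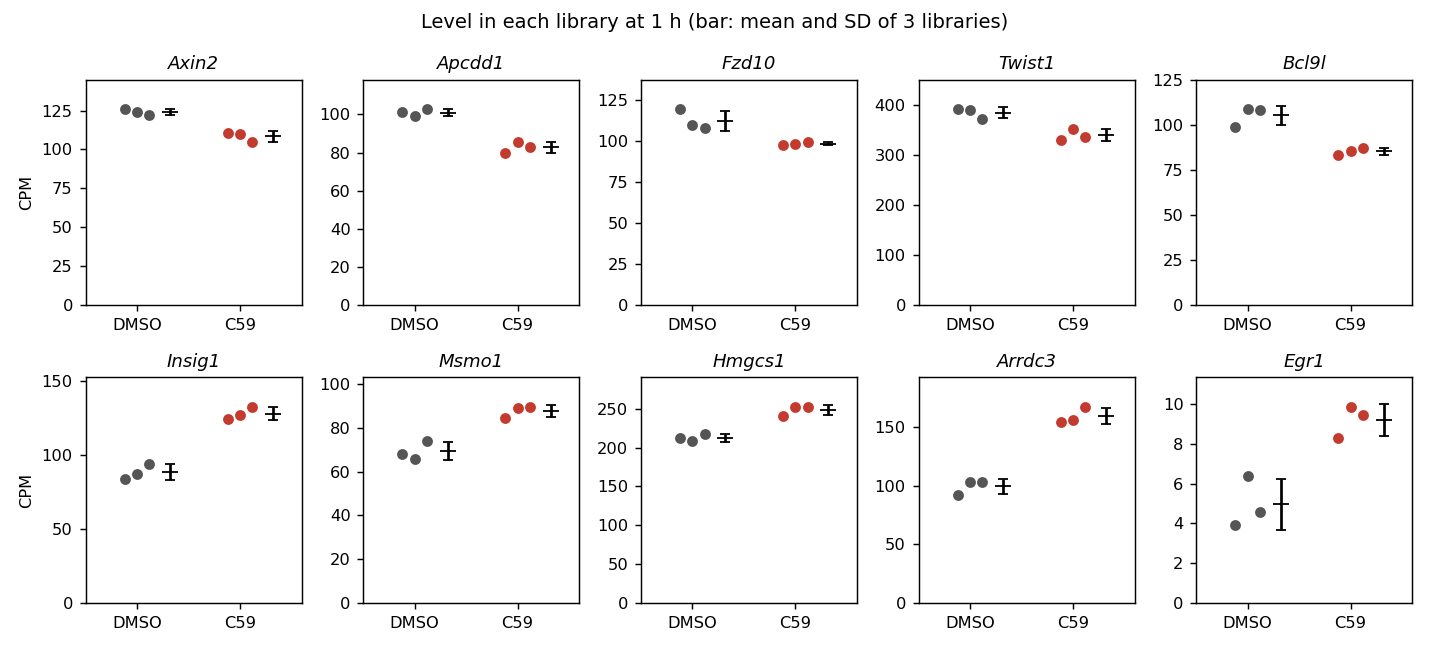
Levels (CPM, y axes from 0) of 10 genes in each of the 6 libraries at 1 h, with the mean and SD of each group beside the points. The C59 points lie below the DMSO points for *Axin2*, *Apcdd1*, *Fzd10*, *Twist1* and *Bcl9l*, and above them for *Insig1*, *Msmo1*, *Hmgcs1*, *Arrdc3* and *Egr1*.

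Promoters of the WNT list were searched for the TCF/LEF core in the RefSeq sequence of GRCm38.p6, from 250 bases before to 50 bases after each start, on both strands. Of 35 listed genes, 23 had a promoter in the table. ATCAAAG occurred in 3 of them, against 4.29% of all 27025 genes in the table (3.73% of its 32851 promoters), and TTCAAAG in 5, against 5.93% of genes (5.14% of promoters). The sequence around the match at *Sp5* is shown because *Sp5* carries the motif close to its start, 104 bases upstream, and was not lower at 1 h. It lies at chr2:70474803-70474841 on the + strand, with the reverse complement of the motif in capitals.
Sp5: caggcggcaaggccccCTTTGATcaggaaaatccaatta

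Few genes in the rest of the WNT pathway were called. As 2.75% of all tested genes were called, lists this short would hold few calls at that share. None of 22 tested genes for receptors, secretion factors and R-spondins passed the test, and none of 10 secreted antagonists did. Among 19 genes of the intracellular machinery only *Bcl9l*, a co-activator that ties β-catenin to Pygopus, was called. It was at 99.0, 109 and 108 CPM after DMSO and at 83.5, 85.7 and 87.3 CPM after C59, and these sets of libraries were separate. Its log2 fold change was -0.30 ± 0.05 (edgeR adjusted p = 0.00397) and, unlike that of *Axin2*, it had the opposite sign at 6 h, where *Bcl9l* was higher after C59 (0.31, edgeR adjusted p = 0.00187). Of 16 WNT ligand genes, only *Wnt2* was called. It was at 0.982, 1.27 and 3.13 CPM after DMSO and 8.93, 4.62 and 4.47 CPM after C59 (1.70 ± 0.35, edgeR adjusted p = 0.018), without overlap but with uneven libraries in both groups. That call was lost without DMSO replicate 1, DMSO replicate 2 or C59 replicate 1 (edgeR adjusted p up to 0.111). The ligand gene *Wnt5a* had overlapping libraries, at 197 to 218 CPM after DMSO and 182 to 209 CPM after C59.

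The list with the largest number of called members was cholesterol synthesis and uptake. These genes are switched on together by the transcription factor SREBP2 when sterols in the endoplasmic reticulum are low, and INSIG1, the product of one of them, holds that factor back. Of 22 tested members, 7 rose after C59 and none fell (1.14% of all tested genes rose), 21 had a positive fold change (50.6% of all genes did) and the list median was 0.16. In 19 of the 22 the libraries of the groups did not overlap, against 22% of all genes.

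*Insig1* (chr5:28071363-28078662, mm10) was at 83.5, 87.3 and 93.9 CPM after DMSO and at 124, 127 and 132 CPM after C59. The lowest C59 library was well above the highest DMSO library. Its log2 fold change of 0.53 ± 0.05 (edgeR adjusted p = 5.13e-05) was the largest of the list. *Msmo1*, which encodes a sterol demethylating enzyme, went from 68.2, 65.9 and 74.0 CPM to 84.5, 89.0 and 89.6 CPM (0.34 ± 0.05, edgeR adjusted p = 0.00308), again without overlap.

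Further called members were enzymes of the synthesis pathway. *Hmgcs1*, an early enzyme, was at 212, 208 and 218 CPM and then 241, 252 and 252 CPM (0.22 ± 0.04, edgeR adjusted p = 0.00566). *Lss*, which forms lanosterol, was at 0.34, and *Idi1*, an isomerase of the mevalonate branch, at 0.26 (edgeR adjusted p = 0.00566 and 0.0477). *Mylip*, which encodes a ubiquitin ligase, was the single member with a negative value (-0.24) and did not pass. The call of *Idi1* was lost when any library but DMSO replicate 3 was left out (edgeR adjusted p up to 0.167). Those of *Hmgcs1* and *Msmo1* were lost when all 30 libraries shared the spread (edgeR adjusted p = 0.155 and 0.105), that of *Hmgcs1* also in both limma fits of the FPKM values and that of *Lss* in the fit of log2(FPKM + 1), while that of *Insig1* was kept in every alternative run.

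By 6 h the direction of this group had turned. Of the same 22 genes, 12 were lower after C59 at 6 h and 3 higher, 16 had a negative fold change, and the list median was -0.20. The change from 1 h to 6 h was toward lower values in 15 genes and toward higher values in 1, against 7.65% and 5.31% of all genes tested. *Insig1* went from 0.53 to -0.45, a change of -0.97 ± 0.08 (edgeR adjusted p = 3.7e-07), and *Msmo1* from 0.34 to -0.45, a change of -0.79 ± 0.08 (edgeR adjusted p = 4.16e-06). The promoters of 14 of the 23 listed genes were in the RefSeq table, and 1 of them, that of *Hmgcs1*, held the sterol regulatory element TCACNCCAC on either strand, against 1.44% of all genes (1.24% of promoters). The match is shown because it is the only one on the list. It begins 137 bases before the start, within chr13:119690198-119690238 on the + strand of GRCm38.p6, with the motif in capitals.
Hmgcs1: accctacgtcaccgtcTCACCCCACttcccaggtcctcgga

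**Figure D3:**
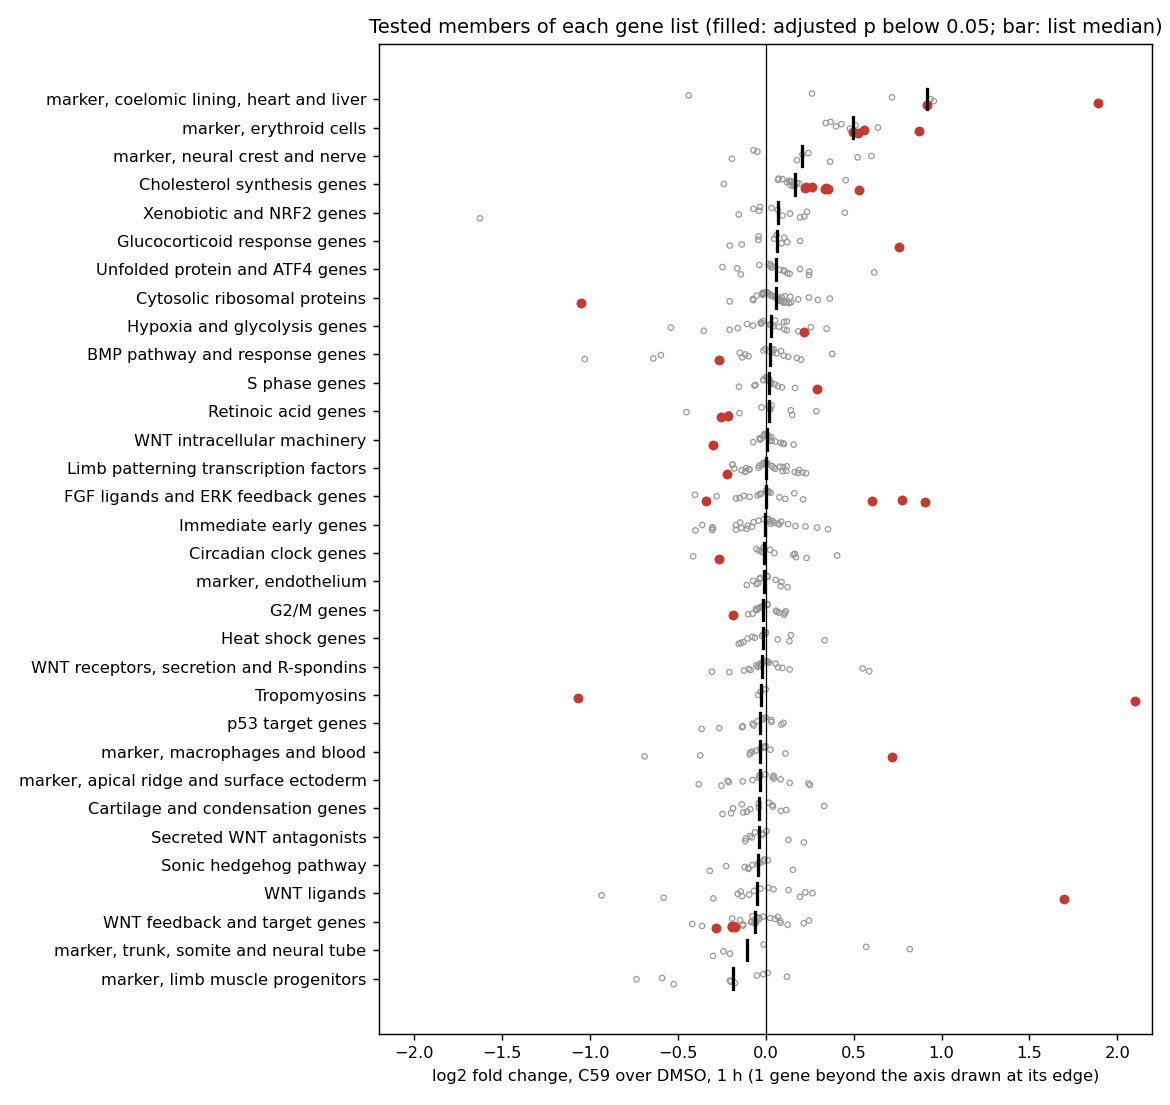
Log2 fold change at 1 h (x axis) of every tested member of the 32 gene lists, with called members filled and a bar at each list's median. The cholesterol list lies to the right of 0 with a median of 0.16, and the WNT feedback list lies slightly to the left with a median of -0.06.

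Calls were unevenly spread over other signalling pathways of the limb bud. Of 23 FGF ligand and ERK feedback genes, 3 rose and 1 fell (17.4% called, against 2.75% of all tested genes). The list median was 0.0003. *Egr1*, an immediate early transcription factor, was at 3.93, 6.37 and 4.55 CPM after DMSO and 8.32, 9.86 and 9.47 CPM after C59 (0.90 ± 0.16, edgeR adjusted p = 0.00804). *Fgf4*, a ligand of the apical ridge, rose by 0.78 ± 0.18 (edgeR adjusted p = 0.0338) and *Dusp5*, a phosphatase induced by ERK, by 0.61 ± 0.13 (edgeR adjusted p = 0.018). *Fgf10*, the mesenchymal ligand that signals to the ridge, fell from 27.8, 28.8 and 30.1 CPM to 22.8, 22.0 and 23.6 CPM (-0.34 ± 0.07, edgeR adjusted p = 0.0139), and its groups did not overlap. The ridge ligand *Fgf8* was at -0.06 ± 0.08 and did not pass. With single libraries left out, the call of *Fgf4* held only without DMSO replicate 2, that of *Dusp5* was lost without DMSO replicate 2 or C59 replicate 1 or 3, and that of *Fgf10* without C59 replicate 1 or 2 (edgeR adjusted p up to 0.125, 0.0745 and 0.0773).

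At 6 h the FGF ligands of the ridge were low, and the difference from 1 h passed its own test. *Fgf4* changed by -4.18 ± 0.52 (edgeR adjusted p = 3.44e-05), *Fgf8* by -1.53 ± 0.11 (edgeR adjusted p = 4.69e-08) and *Dusp5* by -1.56 ± 0.18 (edgeR adjusted p = 1.79e-05), while *Fgf10* changed in the other direction, by 0.56 ± 0.10 (edgeR adjusted p = 0.00166). No member of the 13-gene sonic hedgehog list was called, although 11 had a negative value (49.4% of all genes did), with a list median of -0.05. *Shh* itself was at 14.0, 12.6 and 15.2 CPM after DMSO and 10.7, 10.8 and 12.1 CPM after C59, without overlap, but did not pass the correction (-0.32 ± 0.11, edgeR adjusted p = 0.13). Of 21 BMP pathway genes only *Grem1*, a secreted BMP antagonist that links the BMP, hedgehog and FGF systems, was called, at -0.27 ± 0.06 (edgeR adjusted p = 0.0249), from 81.0, 75.9 and 70.1 CPM to 61.0, 64.4 and 63.1 CPM. Its call was lost when any library but DMSO replicate 3 was left out (edgeR adjusted p up to 0.116), and the log2 fold change at 6 h was -2.94.

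Among 32 limb patterning transcription factors 1 fell (3.1%, against 1.61% of all tested genes), *Shox2*, a homeobox gene of the proximal limb. It was at 267, 284 and 272 CPM after DMSO and 226, 239.8 and 239.8 CPM after C59 (-0.22 ± 0.04, edgeR adjusted p = 0.00886), without overlap. Of 13 retinoic acid genes 2 fell (15.4%, against 1.61% of all tested genes), and both encode nuclear receptors for retinoic acid. *Rarg* went from 249.6, 252 and 242 CPM to 202, 206 and 215 CPM (-0.25 ± 0.04, edgeR adjusted p = 0.00319), and *Rara* had -0.21 ± 0.05 (edgeR adjusted p = 0.0427). The call of *Shox2* was lost without C59 replicate 1 (edgeR adjusted p = 0.071) and that of *Rara* without DMSO replicate 2 or any C59 replicate (up to 0.144). None of 15 cartilage and condensation genes was called.

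Lists for stress and handling of the embryos gave few calls, where 2.75% of all tested genes were called. No gene on the heat shock (14 genes), unfolded protein (18), p53 (14) or xenobiotic (13) lists was called, and none of 30 further immediate early genes was. One of 11 glucocorticoid response genes rose: *Mt1*, a metallothionein, was at 14.7, 19.8 and 19.1 CPM after DMSO and 32.3, 27.0 and 31.2 CPM after C59 (0.76 ± 0.10, edgeR adjusted p = 0.00116). *Hk2*, the only called gene of 23 on the hypoxia and glycolysis list, was at 0.22, and *Nfil3*, the only one of 15 clock genes, at -0.27. In the cell cycle lists, *Ung* of 20 S phase genes rose (0.29) and *Nusap1* of 20 G2/M genes fell (-0.19). The calls of *Hk2*, *Nfil3* and *Nusap1* were lost when any library but DMSO replicate 3 was left out (edgeR adjusted p up to 0.163, 0.161 and 0.123).

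Markers of cells that do not belong to the limb mesenchyme also differed. All 11 tested erythroid genes had a positive fold change (50.6% of all genes did), 4 of them rose (*Hbb-bh1*, *Hbb-y*, *Hbb-bs* and *Slc4a1*, against 1.14% of all genes), and the list median was 0.50. Their summed level was 4616 to 6221 CPM in the DMSO libraries and 6136 to 8669 CPM in the C59 libraries, ranges that overlap slightly, and at 6 h the list median was -0.22. Of 7 genes of the coelomic lining, heart and liver, 6 had a positive value and 2 rose, *Gata4* (1.89 ± 0.39, edgeR adjusted p = 0.0176) and *Gata6* (0.91 ± 0.16, edgeR adjusted p = 0.00551), and the summed level was 17.5 to 27.1 CPM after DMSO and 31.7 to 54.4 CPM after C59. *Gata4* was uneven between libraries, at 3.71, 0.637 and 1.64 CPM and at 8.98, 9.09 and 4.15 CPM, and its call was lost without DMSO replicate 2 or C59 replicate 1 or 2 (edgeR adjusted p up to 0.0907). Those of *Hbb-bs*, *Hbb-y* and *Slc4a1* were lost without DMSO replicate 2 or C59 replicate 1 or 3, and the last 2 also without DMSO replicate 1 (up to 0.0865, 0.0731 and 0.104). *Pf4*, a platelet and macrophage gene, was at 5.76, 5.98 and 5.83 CPM after DMSO and 10.2, 9.55 and 9.15 CPM after C59 (0.72 ± 0.12, edgeR adjusted p = 0.00426), the only call among 13 macrophage and blood genes. Of these 13, 10 had a negative value and 3 a positive one, and the list median was -0.03. The sums overlapped, at 35.1 to 42.2 CPM after DMSO and 36.6 to 43.4 CPM after C59. No call was made among 17 ectoderm, 12 endothelium, 10 muscle progenitor, 9 neural crest and 6 trunk markers. The muscle progenitor list had 8 of 10 negative values and a median of -0.19, with a summed level of 215 to 249 CPM after DMSO and 203 to 213 CPM after C59. The trunk list had 4 of 6 negative values, a median of -0.11 and sums of 218 to 223 CPM and 193 to 205 CPM. In both lists the sums of the groups did not overlap. In whole limb buds, more cells of a type and more RNA per cell cannot be told apart, and the part of these markers in the other results was not tested.

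Outside these lists, and apart from genes at 0 in one group or with near-identical copies, small adjusted p-values included modest changes with little spread. *Arrdc3*, an arrestin-related adaptor that promotes receptor turnover, was at 91.9, 103 and 103 CPM after DMSO and at 154, 156 and 167 CPM after C59 (0.68 ± 0.05, edgeR adjusted p = 5.73e-06). Its increase was still there at 6 h (0.74) and the change between the times did not pass the test (0.06 ± 0.07, edgeR adjusted p = 0.609). At 12 h it was at 110, 113 and 105 CPM after DMSO and 188, 185 and 186 CPM after C59, again without overlap. *Glo1*, which encodes glyoxalase 1, an enzyme that detoxifies methylglyoxal, was at 115, 117 and 116 CPM and then at 72.2, 73.1 and 77.0 CPM (-0.65 ± 0.05, edgeR adjusted p = 1.84e-06), and at -0.74 at 6 h.

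Other increases of this kind were in *Cirbp*, a cold-inducible RNA-binding protein (0.64), *Klhdc4* (0.77), *Dap* (0.74), *Dgke*, a diacylglycerol kinase (0.69), and *Itgb3*, the β3 integrin subunit of platelets and vessels (0.89). Decreases were in *Adam11* (-0.61), *Gjc1*, a gap junction protein (-0.48), *Angptl4*, an inhibitor of lipoprotein lipase (-0.72), *Rpp25l* (-0.71), *Hells*, a chromatin remodeller (-0.38), and *Rbpj*, the DNA-binding partner of Notch (-0.57). All of these had separate libraries, and each but *Hells* and *Rbpj* kept its call in every alternative run. *Rbpj* is an exception to the limit on copies: *Rbpj-ps3* matched it over 1441 bases with 99.72% identity, so its counts are uncertain. The directions did not always last. *Klhdc4* was at 25.8, 25.1 and 22.4 CPM after DMSO and 37.8, 43.3 and 43.4 CPM after C59 at 1 h, but had a log2 fold change of -0.07 at 6 h (change -0.83 ± 0.11, edgeR adjusted p = 4.57e-05).

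**Figure D4:**
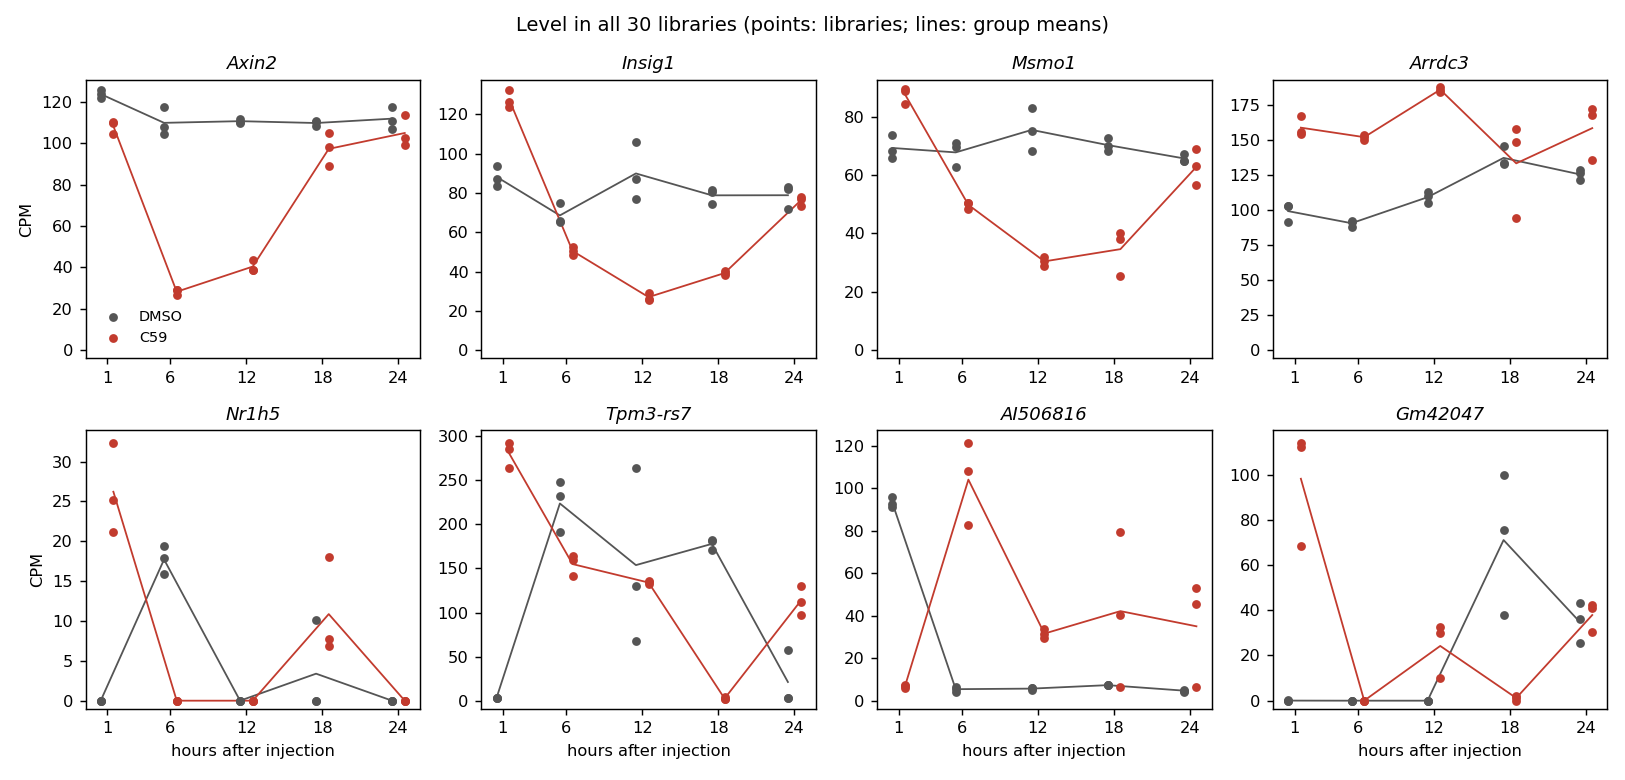
Levels (CPM) in all 30 libraries against hours after injection, with DMSO in grey and C59 in red and lines through the group means. *Arrdc3* is higher after C59 at 1, 6 and 12 h, *Insig1* and *Msmo1* cross between 1 and 6 h, and *Nr1h5*, *AI506816* and *Gm42047* switch between high and near 0 from group to group.

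Many of the largest changes by fold were in genes with a near-identical copy elsewhere in the genome, and a read that matches both copies equally well cannot be assigned with certainty. *Tpm3* encodes a tropomyosin, a protein that lines actin filaments, and *Tpm3-rs7* on chromosome 14 is a related sequence. *Tpm3* was at 580.4, 554 and 556 CPM after DMSO and at 294, 249 and 262 CPM after C59 (-1.07 ± 0.05, edgeR adjusted p = 2.35e-08). *Tpm3-rs7* was at 3.08, 2.99 and 3.56 CPM and then at 263, 292 and 286 CPM. The losses of the one were nearly equal to the gains of the other: their sum was 567 ± 14.6 CPM (SD, n = 3) after DMSO and 549 ± 7.75 CPM (n = 3) after C59.

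The coding sequences of *Tpm3* (transcript ENSMUST00000029549) and *Tpm3-rs7* (ENSMUST00000072359) differed at 3 of 747 positions (99.6% identity). All 3 lie in a stretch of 80 bases, from coding base 48 to 127 of *Tpm3*, shown with the differing bases in capitals because only reads across these bases tell the coding parts apart.
Tpm3: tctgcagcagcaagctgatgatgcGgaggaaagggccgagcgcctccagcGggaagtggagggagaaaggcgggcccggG
Tpm3-rs7: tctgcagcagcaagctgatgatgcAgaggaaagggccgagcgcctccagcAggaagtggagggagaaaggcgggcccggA

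The same arrangement occurred in genes that are not protein-coding. They were tested together with the protein-coding genes, 15040 autosomal genes in all, of which 376 were called (2.5%) and 76 past 2-fold (0.505%). Of the 1964 genes that are not protein-coding, 54 were called (2.75%), of which 33 were higher (1.68%) and 21 lower (1.07%) after C59. The share past 2-fold was 2.09% (41 genes), against 0.283% of protein-coding genes. Processed pseudogenes, which are copies of messenger RNA inserted in the genome, made up 34 of the 54 calls, and 5.81% of the 585 tested were called.

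*Rpsa-ps10*, a pseudogene of the ribosomal protein gene *Rpsa*, was at 5.54, 11.3 and 9.32 CPM after DMSO and at 205, 205 and 207 CPM after C59. *Rpsa* was at 2381, 2352 and 2396 CPM and then at 2002, 2077 and 2067 CPM (-0.21 ± 0.03, edgeR adjusted p = 0.00257). Both differences were larger than the spread between libraries, and the copies aligned over 885 bases with 99.32% identity. Their sum was 2385 CPM after DMSO and 2254 CPM after C59, so the loss of *Rpsa* was larger than the gain of its copy.

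Taking the 37 protein-coding genes called past 2-fold in the test of protein-coding genes and the 41 others called past 2-fold in the test of all autosomal genes, 45 of these 78 matched another protein-coding gene over at least 50% of their transcript and 200 bases at 90% identity or more. These were 33 of the 41 genes that are not protein-coding and 12 of the 37 that are. Only the longest transcript of each gene was searched, so copies could be missed. *Tpm3* was counted as unmatched, although *Tpm3-rs7* matched it over 2108 bases with 99.1% identity. A processed pseudogene is a copy of a messenger RNA, so its match was given in advance. Genes that were not called were not compared, so the count does not show that copies are more frequent among called genes. Several of the 45 matched the same coding gene. Sums were close for *Capza1* with *Gm3608*, at 170 ± 3.61 CPM (SD, n = 3) after DMSO and 171 ± 9.06 CPM (n = 3) after C59. Mean sums were also close for *Rpl30* with *Gm12191*, at 186 ± 52.7 and 185 ± 5.17 CPM. There the DMSO libraries were too uneven to show whether the total was kept. Sums were not close for *Rbpj* with *Rbpj-ps3*, at 140.1 ± 3.58 and 103 ± 9.18 CPM.

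**Figure D5:**
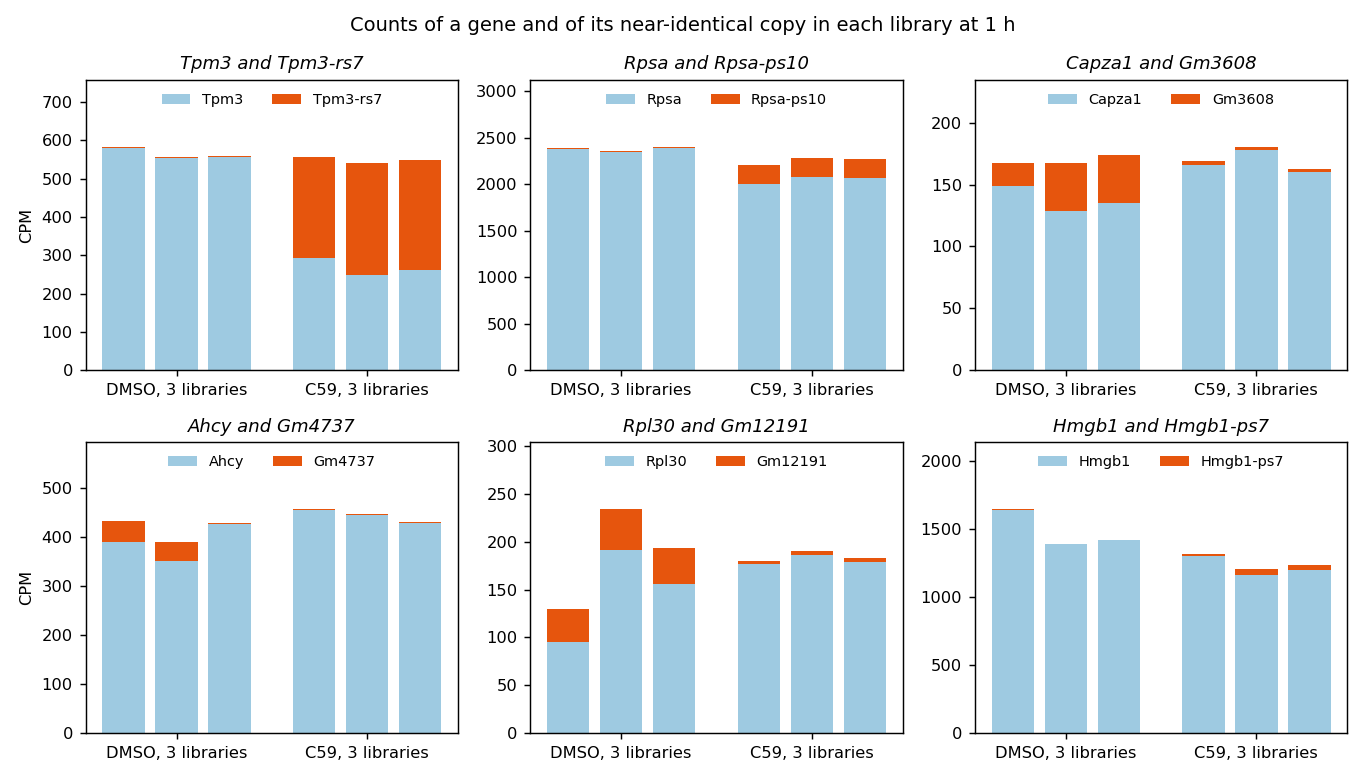
Stacked bars give the CPM of a gene (blue) and of its near-identical copy (orange) in each of the 6 libraries at 1 h. For *Tpm3* and *Tpm3-rs7* the division within the bar differs between DMSO and C59 while the height of the bars stays near 567 and 549 CPM.

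The ribosomal protein genes *Rps2* and *Rpl26* had no second coding gene that matched their longest transcript to this degree. Pseudogenes did not count as matches here, so this does not show that the counts of either gene are free of copies. *Rps2* was at 1331, 1336 and 1295 CPM after DMSO and at 589.9, 674 and 648 CPM after C59 (-1.05 ± 0.05, edgeR adjusted p = 8.19e-09). Its pseudogene *Rps2-ps6* was lower as well, at mean levels of only 1.37 CPM after DMSO and 0.434 CPM after C59. The more abundant copy *Rps2-ps10* had means of 228 CPM after DMSO and 142 CPM after C59 and was not called (-0.69, edgeR adjusted p = 0.203). *Rps2* was the only call among the 45 ribosomal protein genes of the list, which held neither *Rpl26*, *Rpsa* nor *Rpl35a*. The ribosomal protein gene *Rpl35a* fell by 0.33 on the log2 scale (edgeR adjusted p = 0.00817, and 0.0538 without C59 replicate 2). *Rpl26* and *Gm4737* were uneven within a group. *Rpl26* was at 27.2, 37.1 and 39.5 CPM after DMSO and at 202, 179.7 and 37.7 CPM after C59, so C59 replicate 3 lay within the DMSO range, and without that library the adjusted p in edgeR was 1.86e-08. *Gm4737*, a copy of *Ahcy*, was at 43.0, 38.5 and 0.854 CPM after DMSO and at 1.19, 1.69 and 1.74 CPM after C59, with an adjusted p in edgeR of 2.39e-12 without DMSO replicate 3.

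A further set was present in one group and at 0 in the other. *Nr1h5*, which encodes a nuclear receptor of the farnesoid X receptor family, had no count in the 3 DMSO libraries and 32.3, 21.2 and 25.2 CPM after C59, at least 620-fold higher over a floor of 3 counts for the group. At 6 h the arrangement was the opposite, with 17.9, 15.9 and 19.4 CPM after DMSO and 0 in all 3 C59 libraries, and at 12 h and 24 h all libraries were at 0. At 18 h libraries of 1 group disagreed, at 0, 10.2 and 0 CPM after DMSO. *AC165951.1*, an antisense transcript on chromosome 17, was at 5.49, 6.32 and 5.73 CPM after DMSO and at 0 after C59, at least 119-fold lower, and *Gm3468* was at least 16.9-fold lower.

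Levels that switched between groups were also seen in 2 non-coding transcripts. *AI506816* was at 91.0, 92.5 and 95.9 CPM after DMSO at 1 h and at 7.13, 6.11 and 7.52 CPM after C59. At 6 h it was at 4.28, 5.42 and 6.55 CPM after DMSO and at 108, 82.5 and 121 CPM after C59. The long intergenic RNA *Gm42047* was at 0, 0 and 0.107 CPM after DMSO and at 68.2, 112 and 114 CPM after C59 at 1 h, and at 6 h no library of either group exceeded 0.0450 CPM. Libraries of the same treatment and time were mostly alike in these genes, and neither time after injection nor treatment alone ordered the levels.

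Protein-coding genes at low levels in both groups made up many of the remaining large folds. *Padi4*, a peptidylarginine deiminase, was at 0.938, 1.27 and 1.67 CPM after DMSO and 0.0440, 0.103 and 0.158 CPM after C59 (-3.66 ± 0.52, edgeR adjusted p = 0.00144). *Slc37a2*, a sugar phosphate transporter of macrophages, had -2.38 ± 0.31, and *Srp54a*, a subunit of the signal recognition particle, -2.10 ± 0.25. *Srp54a* matched *Srp54b* over 3644 bases with 99.56% identity, so its counts are uncertain. *Ccl28*, a chemokine, rose by 1.56 ± 0.37 and *Gal*, a neuropeptide, by 1.51 ± 0.24 (edgeR adjusted p = 0.0361 and 0.0038), and *Ccl28* kept its call only without DMSO replicate 3 (otherwise up to 0.166). *Srp54a* was lower after C59 in each library at 1 h and had a log2 fold change of 1.77 at 6 h, a change of 3.88 ± 0.42 (edgeR adjusted p = 8.43e-06).

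The fold change of 195 of the 360 genes had the same sign at 1 h and 6 h. Of the 360, 125 were also called at 6 h (19.6% of all genes tested at 6 h were called), and 79 of these 125 had the same sign at both. The share of all tested genes with the same sign at both times was not counted, so the sign counts do not show that effects lasted. Over all tested genes, the C59 effect differed between 1 h and 6 h by a called change of more than 2-fold in 179 of 13397 genes (1.34%), of which 111 changed toward lower values (0.829%) and 68 toward higher values (0.508%). The sign at 1 h matched the direction in which the gene moved in DMSO limb buds between 6 h and 24 h for 199 of the 360 called genes, against 51.4% of all 12956 tested genes with a value. Of the 211 lower genes, 132 were also lower in DMSO limb buds at 24 h than at 6 h. Of the 149 higher genes, 67 were higher there at 24 h than at 6 h. The shares of all tested genes lower or higher in DMSO limb buds at 24 h were not counted. These counts by direction therefore have no background to be set against.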

How the data were processed

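Total RNA of forelimb buds was sequenced as polyadenylated, paired-end libraries. Per the labels and the study's methods, the authors trimmed reads with cutadapt 1.16, aligned them to mm10 with STAR 2.7.0e and deposited a table of raw read counts per gene and a table of FPKM values, the latter from Cufflinks 2.2.1. Strand use in counting was not given in the sources used here. Gene classes and positions came from GENCODE M21, which matched 50628 of 50833 genes (the rest held 0.00676% of counts).

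Counts of protein-coding autosomal genes entered the quasi-likelihood test of edgeR (version 4.0.16, run under R 4.3.3) after TMM scaling (low genes removed by filterByExpr at its default minimum of 10 counts, Benjamini-Hochberg adjusted p below 0.05) in the 6 libraries of 1 h; the change to 6 h was an interaction term in 12 libraries. CPM values used TMM factors of all 30 libraries. All autosomal genes were fitted separately for genes that are not protein-coding. Alternatives were DESeq2 1.42.0, limma 3.58.1 on log2(FPKM + 1) and log2(FPKM + 0.1), other scaling and filters, a shared spread, a replicate block and leaving out each library. The fits were tested on simulated data with known changes.

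Named genes were *Axin2*, called members and extremes of 32 lists, the largest and most significant changes in each direction, genes at 0 in one group, the largest changes to 6 h and paralogs of any of these; *Prrx1*, *Tbx5*, *Tbx4*, *Pitx1*, *Porcn*, *Xist*, unaltered WNT and FGF members, copies and neighbours were added after values were seen. The members and lists were chosen with earlier results of these data known. Transcripts were compared with BLAST 2.17.0+. Some genes that met these rules are not reported here.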

Additional observations from a re-analysis of the deposited data

Results flagged for a closer look

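The C59 effect differed between 1 h and 6 h by more than 2-fold, by the interaction test in edgeR, for the genes below, given as the log2 effect at 6 h minus that at 1 h. For *Nr1h5* the fitted value was -23.72, which depends on the prior count because a group is at 0 at each time and is no measure of size. Among WNT feedback genes and genes of the limb signalling centres it was -4.71 for *Sp5*, -3.37 for *Notum*, -2.23 for *Apcdd1*, -1.79 for *Fzd10*, -1.77 for *Axin2*, -1.62 for *Lgr6*, -1.21 for *Twist1* and -1.03 for *Nkd1*. It was -4.18 for *Fgf4*, -2.67 for *Grem1*, -1.56 for *Dusp5*, -1.53 for *Fgf8* and -1.15 for *Shh*. The ligand genes *Wnt2* and *Gdf5* had -2.40 and 1.72.

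For genes with near-identical copies it was -6.97 for *Tpm3-rs7*, 1.21 for *Tpm3* and 3.88 for *Srp54a*. The remaining decreases were -4.43 for *Rpl26*, -3.21 for *Ccl28*, -2.44 for *Gal*, -1.98 for *March11*, -1.65 for *Hbb-bs* and -1.19 for *Mt1*. The remaining increases were 1.32 for *Nup210l*, 1.69 for *Raet1d*, 1.73 for *Slc25a45*, 1.75 for *Hsd3b6*, 1.77 for *Myog*, 2.37 for *Slc37a2* and 3.39 for *Padi4*.

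Outside the comparison, the summed Y-linked FPKM of the C59 libraries was 37.0 in replicate 1, 38.2 in replicate 2 and 21.2 in replicate 3, each above every DMSO library of 1 h. Y-linked signal stood beside *Xist* in 3 of the 6 libraries, C59 replicate 3 and DMSO replicates 1 and 2.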

How the results depend on the processing

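With all 30 libraries sharing the spread, calls past 2-fold went from 37 to 24, calls at any size from 360 to 178 and calls on the WNT feedback list from 4 to 0. In limma they were 5, 206 and 1 on log2(FPKM + 1) and 24, 223 and 1 on log2(FPKM + 0.1), where the WNT list median moved from -0.0640 to -0.0869. Calls at any size became 580 without the filter and 448 in DESeq2, and a test against 2-fold itself called 2 genes. Without single libraries, calls past 2-fold were 20 to 47, calls at any size 184 to 677, WNT list calls 1 to 4, the WNT list median -0.0894 to -0.0545, and calls over all autosomal genes, 376 in the full set, 206 to 616. The largest counts came without DMSO replicate 3.

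*Axin2* kept its direction (-0.21 to -0.17 without single libraries) and lost its call with the shared spread (-0.19, edgeR adjusted p = 0.151), in limma (-0.20 in both, adjusted p = 0.0930 and 0.0878) and with the replicate block (-0.19, edgeR adjusted p = 0.0671). Same-numbered libraries did not deviate together (correlations -0.04, -0.07 and -0.13). With so few libraries this cannot settle whether equal numbers stand for shared handling. The replicate block left 260 calls at any size, 36 past 2-fold and 1 on the WNT list. Genes that never passed the test changed sign, namely *Notum* to 0.13 and 0.15 in limma and in the range -0.11 to 0.0039 without single libraries, *Lef1* to 0.0065 without C59 replicate 3, and *Fgf8*, which ran from -0.15 to 0.0017 without single libraries. Of 77 named genes called at 1 h, 26 kept the call in all alternatives. Depth limits low genes: 21 of 37 calls past 2-fold stayed under 5 CPM in the higher group.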

Other observations

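Some called genes lay next to each other. Of the 360 called genes, 34 (9.44%) had a called gene as direct neighbour among the tested genes of the chromosome, against 5.27% of the 12716 genes that were not called. They formed 20 adjacent pairs, and both genes moved the same way in 18, against 52.3% of all 13057 adjacent pairs. These sets were chosen after their values were seen, no test was made, and the globin genes are one such set.

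One run was on chromosome 4, where 4 genes within chr4:41699989-41769474 (mm10) were lower after C59. *Rpp25l*, a ribonuclease P-like subunit, was at 76.1, 65.4 and 66.3 CPM after DMSO and at 45.9, 42.2 and 38.5 CPM after C59 (-0.71 ± 0.07, edgeR adjusted p = 0.000121). *Il11ra1*, the interleukin-11 receptor, was at -0.56, *Galt*, an enzyme of galactose breakdown, at -0.53 and *Dctn3*, a dynactin subunit, at -0.37. The annotated span of *Il11ra1* covers or overlaps the other 3, on both strands, so reads shared between them cannot be told apart. On chromosome 11, *Adam11* (-0.61) and *Gjc1* (-0.48) were 19316 bases apart and *Ccdc43* (-0.45) lay 63656 bases from *Adam11*. The increase of *Klhdc4* on chromosome 8 accompanied that of *Gm42047*, 3677 bases away, and *Nup210l* (-1.09) lay 3229 bases from *Tpm3*. The calls of *Dctn3* and *Nup210l* were lost without some single libraries (edgeR adjusted p up to 0.0871 and 0.17).

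Some families of genes were picked after their values were seen. All 3 *Luc7l* genes, which encode parts of the U1 splicing particle, fell, at -0.37 for *Luc7l*, -0.20 for *Luc7l2* and -0.42 for *Luc7l3*, of which *Luc7l2* lost its call without C59 replicate 2 or 3 (edgeR adjusted p up to 0.0654). Over 65 tested splicing and RNA-binding genes of 5 symbol roots, 12 fell and 1 rose (1.61% and 1.14% of all tested genes did), with a median of -0.04 and 47 negative values (49.4% of all genes were negative). Replication-dependent histone genes of the *Hist1* cluster, whose messages mostly lack a poly(A) tail, had 32 positive values among 35 tested (50.6% of all genes were positive), 2 increases and a median of 0.40.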
